A study of Mus musculus with 24 samples.

Results

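Kidney cortex of aged mice without the hormone FGF21 (KO) was compared with that of wild type mice (WT) after a long period on a diet low in protein (LP). The comparison takes the 6 KO_LP and 6 WT_LP libraries, 12 of the 24 libraries of the series, and asks for the genotype effect across all genes on that diet. All animals were males on the C57BL6/J background, 22 months old, and had eaten their diet freely since the age of 3 months, with casein as its protein. The LP diet held 5% protein, and 6 KO_NP and 6 WT_NP libraries from mice on 20% protein (NP) give the same genotype comparison on a normal diet, with no library in common. The labels call the animals FGF21 KO and give neither the allele nor how far it was backcrossed. Each library is named for 1 animal, and replicate numbers below only name libraries.

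FGF21 is a hormone made mainly by the liver, and its level in blood rises when a diet lacks protein. It acts on cells that carry an FGF receptor, above all FGFR1, together with the co-receptor beta-klotho (Klb), and is known for effects on food choice, energy use and lipid handling. The proximal tubule of the cortex reabsorbs glucose, amino acids and phosphate, while the thick limb and distal tubule handle salt, calcium and magnesium.

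Neither Fgf21 nor Klb has a row in the count table, so the deletion could not be checked on its own transcript. Markers of cortex were present in all 12 libraries, with the phosphate carrier Slc34a1 from 917 to 3705 CPM and the loop protein Umod from 972 to 2366 CPM. CPM are counts scaled to a common library total, adjusted by the factor per library given under processing. KO_LP libraries were shallower, at 8.47 to 14.1 M counts against 15.2 to 18.4 M in WT_LP (exact permutation p = 0.00216, adjusted p = 0.00866 over 4 library measures), and no total of one group reached those of the other. Mitochondrially encoded genes took 23.1% ± 2.66 (SD, n = 6) of the counts in KO_LP and 25.9% ± 1.23 in WT_LP (exact permutation test, adjusted p = 0.0519). KO_LP 4 and KO_LP 6 stood apart from the other KO_LP libraries. KO_LP 4 had the highest muscle markers (8 genes, summed to 85.5 CPM, against 12.8 to 21.6 CPM in WT_LP) and the highest T cell and macrophage markers of the 12. KO_LP 6 had the highest adipocyte, neutrophil and liver type markers of the 12 and the lowest proximal tubule markers. Of the fat cell genes, Fabp4, which endothelium makes as well, was at 96.6 to 437 CPM in KO_LP and 99.5 to 141 CPM in WT_LP, Cidec at most at 1.47 and 0.604 CPM and the hormone Adipoq at most at 0.0764 and 0.0642 CPM. The summed level of the 7 tested adipocyte markers was 408 to 1071 CPM in KO_LP and 579 to 1071 CPM in WT_LP, and their part in the results was not tested. Library numbers in the labels run group by group, so a batch that followed them and the genotype cannot be told apart.

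By edgeR's quasi-likelihood test with Benjamini-Hochberg adjustment, 204 genes were higher (1.35%) and 241 lower (1.59%) in KO_LP, together 2.93% of the 15165 tested, at an adjusted p under 0.05 ("called" below). Folds are log2 of KO over WT with their standard error (SE), and their median over all genes tested was 0.02. Of the 445 called genes, 122 differed by at least 2-fold, and in 226 the 2 groups of libraries did not overlap (of all genes tested, 2.27% did not overlap, 1.09% with KO above and 1.19% with KO below). On NP the same test called 52 genes higher (0.343%) and 35 lower (0.231%), together 0.574%. Without KO_LP 4 and KO_LP 6 together, 72 were higher and 72 lower on LP, and 128 of these were among the 445. Of the 92 called genes named here, 89 had all 6 KO libraries above or all below the WT mean. Fgg, Iglc1 and Iglc2 had 5 of 6. The calls came from these same libraries, so such counts were favoured in advance and are no separate support. The call held in each of the 12 fits that leave out 1 library for 47 of the 92. For the other 45, the highest adjusted p of those fits is given below with the library left out.

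Called genes were frequent around the deleted gene. Fgf21 sits on chromosome 7 at 45613886 to 45615490 of GRCm38, on the minus strand. Of 126 tested genes starting within 5 Mb of it, 14 were called (11.1%), 5 higher and 9 lower, against 2.93% of all genes. Of the 14, 13 had the same direction on NP, where 7 were called too. Over a wider window, 65 of 717 genes within 50 Mb were called (9.07%) and 6 of 478 beyond (1.26%). Over the whole chromosome 7 the share was 5.94% (71 of 1195), against 2.68% on all other chromosomes and 1.12% to 4.55% on the other 18 autosomes taken singly.

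**Figure D1:**
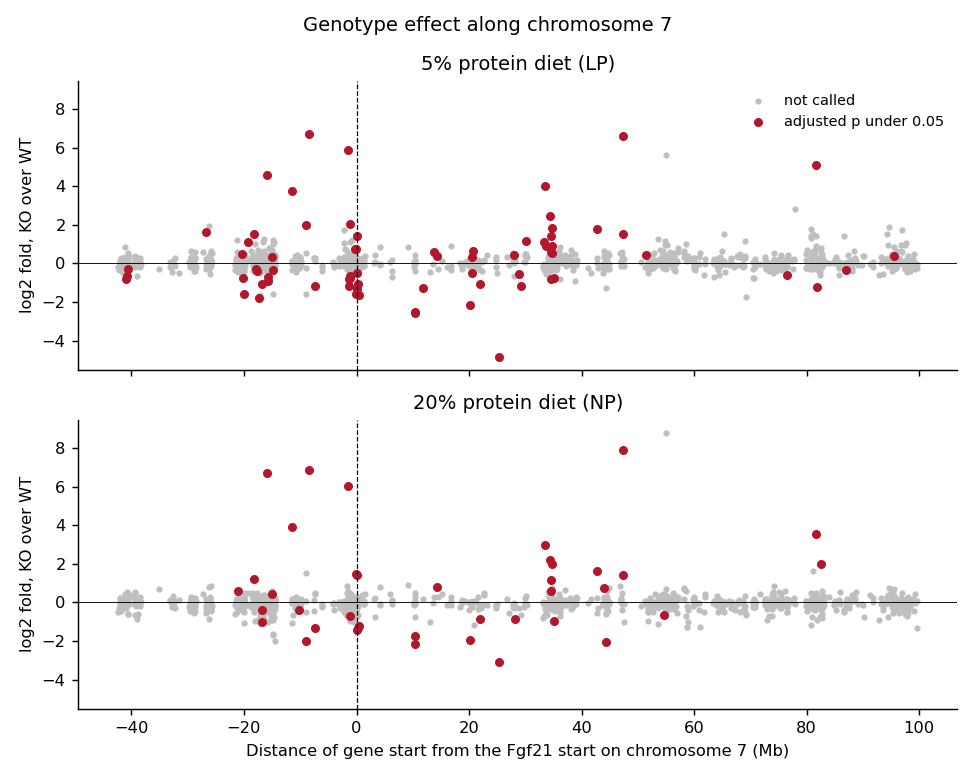
Genotype effect of each tested gene on chromosome 7, as log2 fold of KO over WT (vertical axis), against the distance of its start from the Fgf21 start in Mb (horizontal axis), on LP above and NP below. Red points passed an adjusted p of 0.05; on LP 65 of the 71 lie within 50 Mb of the dashed line, which marks Fgf21.

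Kallikrein genes, which encode serine proteases, lie within 5 Mb of Fgf21. Of 8 tested genes of the Klk1 family 1 was called higher, Klk1b22, and 2 lower, Klk1 and Klk1b5 (together 37.5%, beside 2.93% of all genes tested), while the other 5 were not called. Klk1b22 (chromosome 7, 44112673 to 44116922) ran from 49.2 to 132 CPM in KO_LP (median 62.7) and from 0.991 to 1.74 CPM in WT_LP (median 1.18). Its log2 fold was 5.88 (SE 0.286, adjusted p = 3.1e-12) on LP and 6.01 on NP, where KO ran from 62.3 to 88.0 CPM. No KO library came near a WT library on either diet. Klk1 (44225360 to 44229618), the tissue kallikrein of the distal tubule that frees kinins, ran from 302 to 585 CPM (median 418) in KO_LP and from 496 to 1338 CPM (median 1020.2) in WT_LP. Its lowest WT library overlapped the KO range, and its log2 fold was -1.18 (SE 0.207, adjusted p = 0.00238) on LP and -0.49 (adjusted p = 0.304) on NP. The neighbour Klk1b5 ran from 0.611 to 1.42 CPM against 1.21 to 2.33 CPM (-0.79, adjusted p = 0.0335, 0.0759 without KO_LP 4). The longest transcripts of Klk1 and Klk1b5 are 94.2% identical over 954 bases, and those of Klk1 and Klk1b22 85.3% over 849, so the split of counts within the family is uncertain.

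The stretches upstream of Klk1 and Klk1b22 are printed because the pair moved in opposite directions although these sequences align without a gap. They come from RefSeq (GRCm38.p6, plus strand), with capitals at the bases that differ between them; 122 of 156 are the same (78.2%). They span chr7:44225203-44225358 for Klk1, ending at position -2 from its annotated start, and chr7:44112426-44112581 for Klk1b22, ending at position -92.
Klk1: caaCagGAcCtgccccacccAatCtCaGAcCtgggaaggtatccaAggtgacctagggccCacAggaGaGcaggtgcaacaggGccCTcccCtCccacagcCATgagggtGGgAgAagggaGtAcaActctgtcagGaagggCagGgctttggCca
Klk1b22: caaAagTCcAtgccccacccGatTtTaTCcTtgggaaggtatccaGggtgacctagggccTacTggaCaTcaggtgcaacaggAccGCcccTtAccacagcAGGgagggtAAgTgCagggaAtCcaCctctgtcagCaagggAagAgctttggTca

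Bcat2, the mitochondrial enzyme that starts the breakdown of branched-chain amino acids, lies next to Fgf21. It ran from 15.8 to 21 CPM in KO_LP and from 9 to 13.1 CPM in WT_LP, without overlap (log2 fold 0.75, SE 0.153, adjusted p = 0.0087). On NP its log2 fold was 1.47, and the difference between the diets had an unadjusted p of 0.00268. The carbonic anhydrase relative Car11 was at 4.05 to 5.89 CPM against 1.60 to 2.10 CPM, with a log2 fold of 1.44 on either diet. The membrane protein complex gene Emc10 was at 56.6 to 70 CPM against 96.5 to 109 CPM (log2 fold -0.75, SE 0.0665, adjusted p = 1.1e-07; -0.70 on NP). Lower as well were the deubiquitinase Josd2 (-0.67), the sphingosine kinase Sphk2 (-0.51), the kinase Lmtk3 (-1.31), the cilium gene Ccdc114 (-1.06), the efflux pump Abcc6 (-1.62) and the steroid dehydrogenase Hsd17b14 (-1.57). Higher were the cation channel Trpm4 (log2 fold 0.72) and the muscle protein gene Mybpc2 (2.05), with -0.06 and 0.20 on NP. Mybpc2 was highest in KO_LP 4, the library with muscle markers, and without it the adjusted p was 0.0786. Trpm4 reached 0.0514 without WT_LP 1.

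Further along chromosome 7, several genes were called on both diets. The heme pathway enzyme gene Blvrb ran from 42.2 to 85.4 CPM against 18.3 to 25.6 CPM (log2 fold 1.5, SE 0.14, adjusted p = 3.0e-07; 1.21 on NP). Hddc3, a nucleotide hydrolase gene, ran from 20.5 to 32.0 CPM against 6.41 to 8.39 CPM (log2 fold 1.83, adjusted p = 1.0e-09; 1.99 on NP). Neither gene overlapped between the groups. The RNA processing gene Pop4 fell by 1.17 on the log2 scale (adjusted p = 7.2e-08; -1.34 on NP), the mitochondrial ribosome gene Mrps12 by 1.08 (-1.02 on NP) and the protease gene Pcsk6, which activates growth factors, by 2.18 (-1.94 on NP). Ngrn was higher (0.62 on LP, 0.59 on NP) and the co-activator Crtc3 lower (-0.77 and -0.98). Others were called on LP alone. The adhesion molecules Ceacam1 (-0.78) and Ceacam2 (-1.58) were lower on LP, with -0.42 and -1.08 on NP. The exonuclease gene Isg20 was higher on LP (1.10, adjusted p = 0.0173, 0.0511 without WT_LP 1), with -0.07 on NP (unadjusted p for the difference 0.0026).

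Called genes were also frequent in a stretch of chromosome 9 and one of chromosome 19. On chromosome 9 between 40 and 62 Mb, limits chosen after the positions of the calls were seen, 20 of 197 genes were called (10.2%) and 18 of 639 on the rest (2.82%). Of the 20, 18 had the same sign on NP and 5 were called there too. Among those 5, the adhesion gene Mpzl2 ran from 34.8 to 59.3 CPM against 12.8 to 23.5 CPM (log2 fold 1.21, adjusted p = 0.00079; 0.81 on NP). The ion pump regulator Fxyd6 had a log2 fold of 1.5 (1.02 on NP), and the small heat shock protein gene Cryab fell by 0.79 (-0.92 on NP; adjusted p = 0.0283, 0.0626 without WT_LP 6). On chromosome 19 between 18 and 24 Mb, likewise chosen afterwards, 4 of 22 genes were called (18.2%, against 2.70% on the rest), all higher and all called on NP too. Among them were a pair of aldehyde dehydrogenases, of which Aldh1a1 makes retinoic acid from retinal. Aldh1a1 ran from 38.3 to 195 CPM (median 106) against 18.8 to 30.4 CPM (log2 fold 2.14, SE 0.27, adjusted p = 8.1e-05; 1.66 on NP). Aldh1a7 ran from 34.3 to 60.2 CPM against 17.1 to 23 CPM (adjusted p = 0.00327, log2 fold 1.20 on NP), and Ostf1 had a log2 fold of 0.64 (0.69 on NP). The ranges of these genes did not overlap on LP.

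The 2 largest folds of the whole comparison belonged to processed copies of abundant genes. Gm11942 on chromosome 4 is 97.4% identical to the 345 coding bases of Rplp1, a ribosomal stalk protein gene on chromosome 9. It was at 602 to 1612 CPM in KO_LP and 0.367 to 2.90 CPM in WT_LP. Gm15459 on chromosome 5 is 99.7% identical to the 1941 coding bases of Hspa8, the constitutive heat shock protein gene on chromosome 9. It was at 56.3 to 134 CPM in KO_LP and at most 0.217 CPM in WT_LP, with a median of 0. Both parent genes lie in the chromosome 9 stretch named above. Rplp1 fell, and ran from 575 to 886 CPM against 1023 to 1340.3 CPM (log2 fold -0.57, SE 0.111, adjusted p = 0.00606). Hspa8 ran from 74.6 to 340.2 CPM against 373 to 757 CPM without overlap, and was not called (log2 fold -1.18, SE 0.353, adjusted p = 0.0665). Of the other copies of Rplp1, Gm10073 fell by 0.91 on the log2 scale, and Gm17511 was at 2.06 to 6.56 CPM in KO_LP and 0 to 0.233 CPM in WT_LP.

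Coding stretches are printed to show how alike parent and copy are. They come from the GENCODE M21 transcripts, with capitals at the bases that differ, and cover bases 139 to 258 of the Rplp1 coding sequence and bases 25 to 114 of that of Hspa8.
Rplp1: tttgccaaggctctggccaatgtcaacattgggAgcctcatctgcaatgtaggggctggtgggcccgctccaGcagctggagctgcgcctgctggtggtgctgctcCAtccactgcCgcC
Gm11942: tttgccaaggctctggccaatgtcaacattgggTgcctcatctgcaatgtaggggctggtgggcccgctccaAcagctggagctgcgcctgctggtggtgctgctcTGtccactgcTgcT
Hspa8: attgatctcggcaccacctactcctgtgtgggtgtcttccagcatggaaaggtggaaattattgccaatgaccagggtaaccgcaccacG
Gm15459: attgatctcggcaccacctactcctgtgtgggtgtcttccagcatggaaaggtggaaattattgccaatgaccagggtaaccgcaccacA

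With copies this alike, the split of reads between a gene and its copies is uncertain, and libraries were read from the poly(A) end. Summed over Rplp1 and its 3 copies, the level was 1367 to 2197 CPM in KO_LP and 1032 to 1352 CPM in WT_LP. Summed over Hspa8 and Gm15459 it was 209 to 437 CPM against 373 to 758 CPM. On NP the KO libraries were mixed. Gm11942 was at 562 to 740.4 CPM in 4 of 6 KO_NP libraries and at 1.42 and 1.68 CPM in the other 2, within the range of the WT libraries. Gm15459 was at 58.0 to 143 CPM in 5 of 6 and at 0.0988 CPM in the other. Klk1b22, near Fgf21, was high in all 6 (62.3 to 88.0 CPM).

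**Figure D2:**
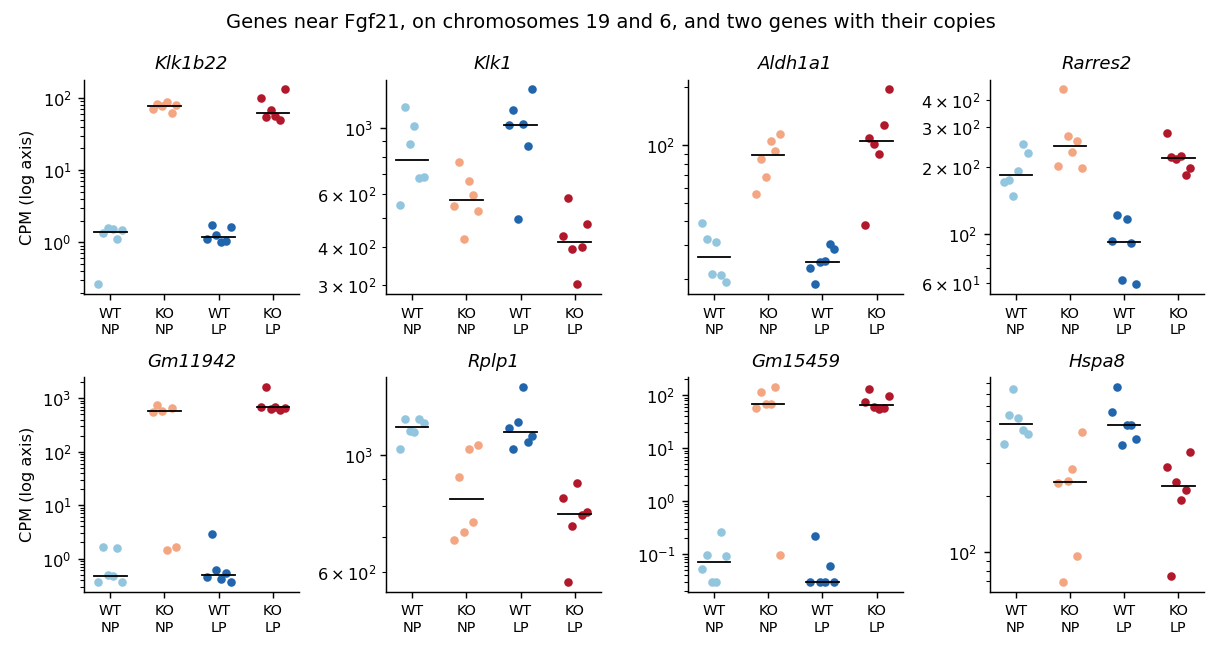
Level of 8 genes in each library, in CPM on a log axis, for the 4 groups of 6 libraries; bars mark medians and libraries at 0 are drawn at 0.03. Klk1b22 separates KO from WT in all libraries of both diets, while Gm11942 is at the WT level in 2 KO_NP libraries and Gm15459 in 1.

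Away from chromosome 7, 374 genes were called on LP, of which 302 kept their call when chromosome 7 was left out of the test. Of the 374, 265 (70.9%) had the same sign on NP, against 48.9% of all genes tested. On chromosome 7, 61 of the 71 called genes (85.9%) had the same sign. Both diets called 45 genes, all in the same direction, and 29 of them lie on chromosome 7, 6 on chromosome 9 and 4 on chromosome 19. The median size of the log2 fold among the 445 was 0.57 on LP and 0.19 on NP. A test of whether the genotype effect differed between the diets called 0 genes by edgeR (smallest adjusted p = 0.158, 2430 genes at an unadjusted p under 0.05) and 117 by DESeq2. Among the 445 called genes, which were chosen for their size on LP, 236 had an unadjusted p under 0.05 for that difference.

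**Figure D3:**
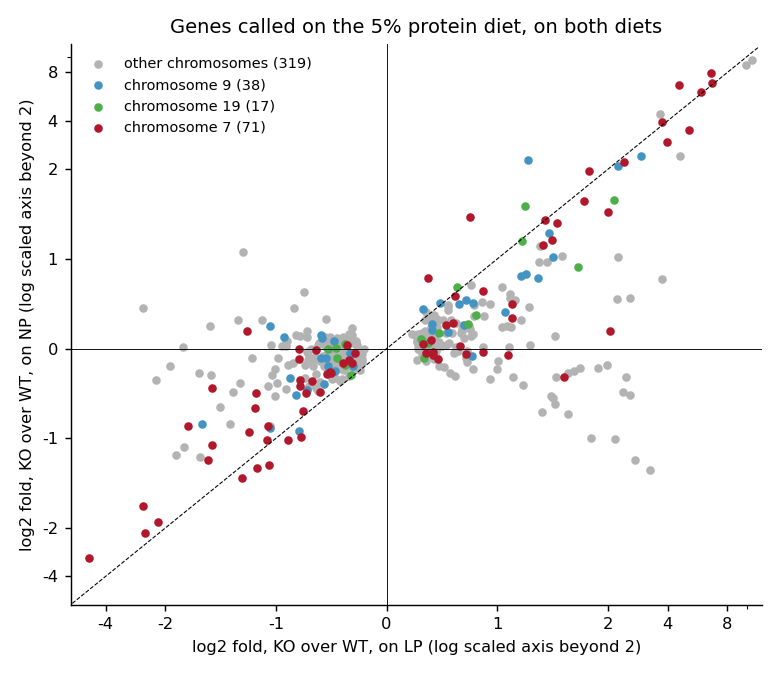
Log2 fold of KO over WT on LP (horizontal axis) and on NP (vertical axis) for the 445 genes called on LP, linear up to 2 and log scaled beyond; the dashed line marks equal folds. Of the 71 genes of chromosome 7, 61 have the same sign on both diets, against 265 of the 374 others.

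Immunoglobulin genes were higher in KO_LP. Of 26 tested genes of B and plasma cells, 7 were higher in KO_LP (26.9%, beside 1.35% of all genes tested) and 0 lower. Their median log2 fold was 1.61 on LP and -0.84 on NP. On NP the list was highest in WT_NP 1, at a summed 16967 CPM against a WT_NP median of 3568 CPM. What part WT_NP 1 had in the NP median was not tested. Jchain, which links antibody units into larger forms, ran from 136 to 1083 CPM (median 196) against 19.5 to 113 CPM (median 65.0; log2 fold 2.38, SE 0.604, adjusted p = 0.0342, 0.107 without KO_LP 5). Ighg2c, an antibody heavy chain gene, ran from 52.7 to 237 CPM against 1.23 to 22.2 CPM (3.26, adjusted p = 0.0237, 0.0621 without WT_LP 1). Tnfrsf17, the survival receptor of plasma cells, ran from 0.464 to 3.90 CPM against 0.117 to 0.276 CPM (2.60, adjusted p = 0.0184, 0.0607 without KO_LP 5). None of the 3 overlapped between the groups on LP.

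The kappa light chain Igkc ran from 1208 to 13463 CPM against 308 to 1899.5 CPM, with overlap (2.17, adjusted p = 0.0497, 0.143 without KO_LP 5). The others were Igha (1.59, adjusted p = 0.0463, 0.102 without KO_LP 5), Iglc1 (2.59, adjusted p = 0.0437, 0.119 without KO_LP 2) and Iglc2 (3.75, adjusted p = 0.0436, 0.305 without KO_LP 5). The lambda chain constant genes are so alike that their split is uncertain. KO_LP 5 was the highest KO_LP library for Igkc, Jchain, Ighg2c, Igha, Iglc2 and Tnfrsf17. Without it 1 of the 26 genes was called (median 1.16), without KO_LP 4 there were 2, and without KO_LP 4 and KO_LP 6 together there were 5 (median 1.75). Over the fits with 1 library left out, the count ran from 1 (without KO_LP 5, WT_LP 1, WT_LP 2 or WT_LP 6) to 11 (without WT_LP 3). None of the 26 was called with 1 surrogate variable (median 0.84) or with the mean of the macrophage, T cell and B cell lists, which holds these genes, as covariate (the immune covariate, median 0.23). On NP Igkc ran from 1243 to 2634 CPM in KO and from 808 to 10608 CPM in WT. The summed level of the 26 genes was 2417 to 23614 CPM in KO_LP and 712 to 3529 CPM in WT_LP, while the B cell gene Cd79a was at most 0.812 CPM in KO_LP and 0.166 CPM in WT_LP. The part of cell number in these differences was not tested. In bulk tissue, more cells of a type and more RNA per cell cannot be told apart.

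Other leukocyte genes leaned the same way with few calls. All 23 tested T and NK cell genes had folds above 0 (median 1.07, -0.50 on NP). Of them 1 was called (4.35%, beside 1.35% of all genes tested), the granzyme Gzmk (1.64, adjusted p = 0.0417, 0.117 without KO_LP 4). With 1 library left out, 0 to 15 of the 23 were called (15 without WT_LP 3), and 0 with either covariate. The T cell receptor chain Cd3e was at 1.10 to 3.51 CPM against 0.315 to 1.60 CPM (1.29, adjusted p = 0.0563). Of 25 macrophage and dendritic cell genes none was called and 24 had folds above 0 (median 0.45, 0.17 without KO_LP 4), with 1 called without KO_LP 2. The lectin Clec10a, found on alternatively activated macrophages, was higher (1.5, adjusted p = 0.0355, 0.0892 without KO_LP 6), and the scavenger receptor Cd163 had a log2 fold of 2.28 (adjusted p = 0.0663). The macrophage growth factor Il34, made by tubule cells, ran from 58.7 to 198 CPM against 39.1 to 54.0 CPM (1.01, adjusted p = 0.0355, 0.0773 without KO_LP 6). The cytokine Il18, which lies in the chromosome 9 stretch, rose too (0.78, adjusted p = 0.0484, 0.118 without KO_LP 4). Interferon genes (41 tested), MHC class I genes (20) and MHC class II genes (11) gave 0 calls, with medians of 0.35, 0.36 and 0.39 on LP and -0.32, -0.25 and -0.50 on NP. With 1 library left out, at most 3, 7 and 1 of them were called. The interferon list does not hold Isg20, given above as called higher on LP. WT_NP 1 was the highest WT_NP library of each leukocyte, interferon and MHC list given here, and no library was left out on NP.

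Fibrinogen and other acute phase genes were highest in 1 KO_LP library. These proteins are made mainly in liver, and injured tubules can make fibrinogen and lipocalin as well. Of 20 tested genes, 2 were called higher (10%, beside 1.35% of all genes tested) and 0 lower (median 0.58, -0.36 on NP). On NP, WT_NP 1 was the highest WT library of the list. Fgg, the fibrinogen gamma chain, ran from 15.7 to 219 CPM (median 46.3) against 11.8 to 28.7 CPM (median 17.5; log2 fold 1.91, SE 0.477, adjusted p = 0.0324). Lrg1, a secreted glycoprotein, ran from 12.5 to 148 CPM (median 20.5) against 7.24 to 18.5 CPM (1.75, adjusted p = 0.0473). Both groups overlapped, and the highest value of each was KO_LP 6. Without that library the log2 folds were 1.12 (adjusted p = 0.100) and 0.68 (adjusted p = 0.149), and no gene of the list was called, nor was one with either covariate. With 1 library left out, 0 to 3 were called, and it was 0 also without WT_LP 1, WT_LP 2, WT_LP 5 or WT_LP 6. The alpha chain Fga had a log2 fold of 1.45 (adjusted p = 0.0649), the beta chain Fgb 0.59 and the transcription factor Stat3 0.56 (adjusted p = 0.0932).

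The 150 bases upstream of the fibrinogen genes and Lrg1 are printed because the 3 fibrinogen genes sit side by side on chromosome 3 and Fgg and Lrg1 were the members called. They are RefSeq sequences of GRCm38.p6, each ending at the base before the annotated start, and capitals mark CTGGGA, the core letters known from interleukin 6 response elements. Both CTGGGA and its complement TCCCAG were searched, and 17.7% of 32851 such windows in the table hold one. The windows are chr3:83007574-83007723 (plus strand), chr3:83026003-83026152 (plus), chr3:83049864-83050013 (minus) and chr17:56121947-56122096 (minus), in the order printed.
Fgg: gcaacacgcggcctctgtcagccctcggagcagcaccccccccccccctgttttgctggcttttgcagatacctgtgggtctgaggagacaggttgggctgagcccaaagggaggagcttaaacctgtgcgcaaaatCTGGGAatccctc
Fga: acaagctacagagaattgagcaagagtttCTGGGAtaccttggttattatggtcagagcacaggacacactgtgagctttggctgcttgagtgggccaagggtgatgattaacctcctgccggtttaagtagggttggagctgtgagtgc
Fgb: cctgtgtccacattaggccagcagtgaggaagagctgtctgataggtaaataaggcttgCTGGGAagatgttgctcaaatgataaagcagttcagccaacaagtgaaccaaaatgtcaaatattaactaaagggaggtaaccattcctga
Lrg1: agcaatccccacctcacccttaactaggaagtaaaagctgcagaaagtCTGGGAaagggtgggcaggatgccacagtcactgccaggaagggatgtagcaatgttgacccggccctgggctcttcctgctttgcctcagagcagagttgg
Each window holds 1 match, at positions -13, -121, -91 and -102 from the start. A match is a run of letters and not a shown binding site.

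No injury gene was called higher. Of 31 genes of tubular injury and repair, 29 had folds above 0 on LP (median 0.49) and 2 on NP (median -0.44). On LP 0 were called higher and 1 lower, Cryab (3.23%, beside 1.59% of all genes tested). On NP the highest WT library of the list was WT_NP 1, at a summed 4034 CPM against a WT_NP median of 1865 CPM. The injury receptor Havcr1 (log2 fold 0.51), the transcription factor Sox9 (0.89), the keratin Krt20 (1.45), the stress hormone Gdf15 (1.26) and the lipocalin Lcn2 (1.70) had adjusted p values of 0.149 to 0.659. Gdf15 was at 155 CPM in KO_LP 6 and at most 16.7 CPM in the other KO_LP libraries, and its log2 fold without KO_LP 6 was -0.14. Without KO_LP 4 and KO_LP 6 the median of the list was 0.09. Plin2, which coats lipid droplets, was at 1310.3 CPM in KO_LP 6 and at most 113 CPM in the other KO_LP libraries. It was not called (adjusted p = 0.100). Of 38 tested PPAR alpha and fatty acid oxidation genes 1 was called, the glycerol channel Aqp7 (-0.71, adjusted p = 0.0122). That is 2.63% of the list, beside 1.59% of all genes tested that were lower. Folds above 0 were found for 25 of the 38 (median 0.30, -0.14 on NP), and without KO_LP 6 the median was -0.058.

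**Figure D4:**
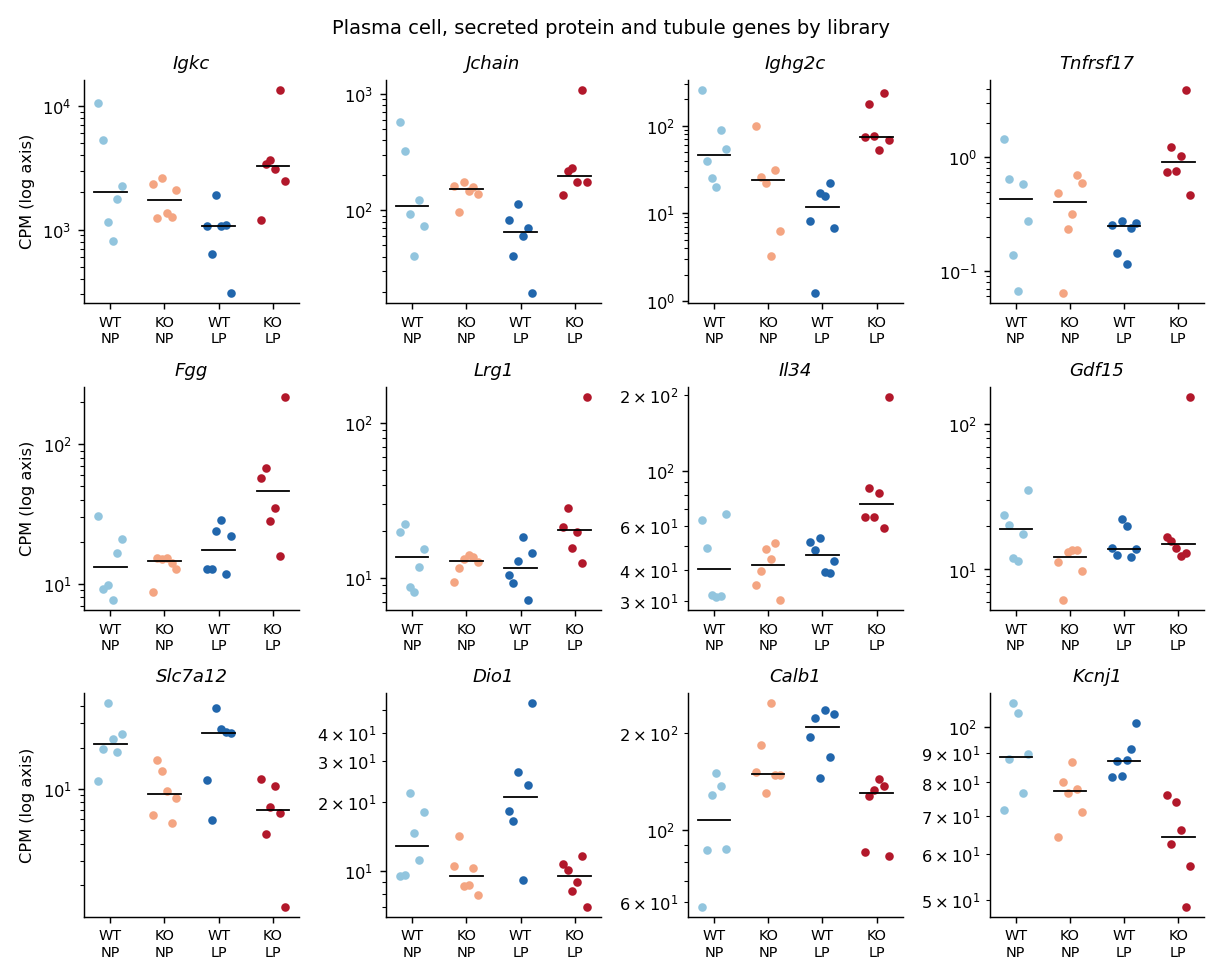
Level of 12 genes in each library, in CPM on a log axis, for the 4 groups; bars mark medians. The upper rows hold immunoglobulin, fibrinogen and related genes, where single KO_LP libraries reach far above the others (Jchain 1083 CPM, Fgg 219 CPM), and the bottom row tubule genes that were lower in KO_LP.

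On chromosome 6, Rarres2 rose, which encodes the adipokine chemerin, an attractant of macrophages and dendritic cells. It ran from 183 to 283 CPM in KO_LP (median 219) and from 59.4 to 121 CPM in WT_LP (median 91.8), without overlap (log2 fold 1.29, SE 0.198, adjusted p = 0.000729). On NP KO ran from 198 to 444 CPM and WT from 148 to 253 CPM (log2 fold 0.47, adjusted p = 0.309), and no WT_LP library reached any other group. The unadjusted p for the difference between diets was 0.00653. Of 14 tested genes listed under retinoid handling, 3 were called higher (21.4%, beside 1.35% of all genes tested) and none lower (median 0.41, 0.02 on NP). They were Rarres2, whose product chemerin is no retinoid enzyme, and the neighbours Aldh1a1 and Aldh1a7 of the chromosome 19 stretch. The count therefore does not show a shift of the pathway.

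Several secreted or metabolic genes rose as well. The apolipoproteins Apoh (1.53, adjusted p = 0.0173) and Apoc3 (1.37, adjusted p = 0.0468) were higher without overlap and highest in KO_LP 6. Without that library Apoc3 was not called (adjusted p = 0.126). Apoc3 also lies in the chromosome 9 stretch. The cytochrome P450 gene Cyp2j9 ran from 8.51 to 23.3 CPM against 5.01 to 6.61 CPM (1.12, adjusted p = 0.00145). The phosphate carrier Slc20a1 ran from 45.4 to 79.0 CPM against 30.8 to 37.7 CPM (0.69, adjusted p = 0.0158). The clock repressor Bhlhe40 (0.42), the epithelial barrier gene Inava (0.73) and the aldose reductase Akr1b3 (0.76, adjusted p = 0.0451, 0.109 without WT_LP 1) were higher as well. The receptor Adgrg2 had a log2 fold of 1.52 (adjusted p = 0.0484, 0.117 without KO_LP 4).

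Tubule genes were lower as scattered members of their segments. Of 15 markers of the last proximal segment (S3), 3 were lower (20%, beside 1.59% of all genes tested) and 0 higher (median -0.37, 0.15 on NP). They were the amino acid transporter Slc7a12 (1.39 to 11.8 CPM against 5.94 to 38.9 CPM, log2 fold -1.69, adjusted p = 0.034), the nicotinate and urate carrier Slc22a13 (23.2 to 48.6 CPM against 33.0 to 90.8 CPM, -1.05, adjusted p = 0.0116) and the fatty acid transporter Slc27a2 (-0.52, adjusted p = 0.0478). Each overlapped between the groups. Slc22a13 kept its call in each of the 12 fits, while Slc7a12 reached 0.0637 without WT_LP 5 and Slc27a2 0.121 without WT_LP 1. Of 24 markers of the first segments (S1 and S2), 1 was called (4.17%), the cationic amino acid exporter Slc7a7 (-0.60, adjusted p = 0.0453, 0.111 without KO_LP 4). The median was -0.25 with 20 of 24 below 0, and 0.20 on NP. Slc34a1, the phosphate carrier of these segments, had a log2 fold of -0.41 (adjusted p = 0.215). KO_LP 4 and KO_LP 6 had the lowest mean of the S1 and S2 markers of the 12, and without both the medians of S1 and S2 and of S3 were -0.12 and -0.24, with 0 calls. Leaving out 1 library, 0 to 4 of the S1 and S2 markers (4 without WT_LP 3) and 1 to 3 of the S3 markers were lower. With the immune covariate none of either was called. What part these libraries' other differences had was not tested.

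In the thick ascending limb 2 of 15 genes were lower (13.3%, beside 1.59% of all genes tested) and 0 higher (median -0.21). The potassium channel Kcnj1, needed for salt uptake there, ran from 48.7 to 75.9 CPM against 81.7 to 101 CPM (log2 fold -0.47, SE 0.109, adjusted p = 0.0198), and the secreted BMP antagonist Sostdc1 from 32.2 to 76.2 CPM against 81.5 to 134 CPM (-0.72, adjusted p = 0.0328). Neither overlapped, and their adjusted p reached 0.0527 and 0.0674 without WT_LP 6. The growth factor gene Egf had a log2 fold of -0.67 (adjusted p = 0.084). In the distal convoluted and connecting tubule 3 of 17 were lower (17.6%) and 0 higher (median -0.43, 16 of 17 below 0, 0.12 on NP), namely Klk1, Fxyd2 and Calb1. Fxyd2, the gamma subunit of the sodium pump, ran from 877 to 1344 CPM against 1261 to 1772 CPM (-0.54, adjusted p = 0.00798), and lies in the chromosome 9 stretch. Calb1, the calcium buffer calbindin, ran from 83.3 to 144 CPM against 145 to 235 CPM (-0.74, SE 0.204, adjusted p = 0.0484, 0.0977 without WT_LP 2). Fits without 1 library called 0 (without WT_LP 6) to 5 (without KO_LP 1) genes of the thick limb and 2 to 3 of the distal list, all lower. Without KO_LP 4 and KO_LP 6 together 0 of the thick limb (median -0.26) and 1 of the distal list (median -0.25) were, and with the immune covariate 0 of both.

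Calb1 was also among the 10 genes with the smallest p for the difference between diets. Its log2 fold on NP was 0.63, with an unadjusted p of 7.9e-05 and an adjusted p of 0.158 for the difference. The bile acid enzyme Akr1d1 was another, at -0.84 on LP (adjusted p = 0.0297, 0.0803 without WT_LP 2) and 0.46 on NP. In the collecting duct the water channel Aqp4 (-1.59, adjusted p = 0.0444, 0.103 without KO_LP 4) and the matrix protein Npnt (-0.62, adjusted p = 0.00603) were lower. They were 2 of 12 genes (16.7%, beside 1.59% of all genes tested), and 1 to 2 were called with 1 library left out. The endothelial gene Eng was the 1 of 18 endothelial markers (5.56%) called (-0.42, adjusted p = 0.0253, 0.0657 without WT_LP 6), and 0 of 16 podocyte genes were.

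**Figure D5:**
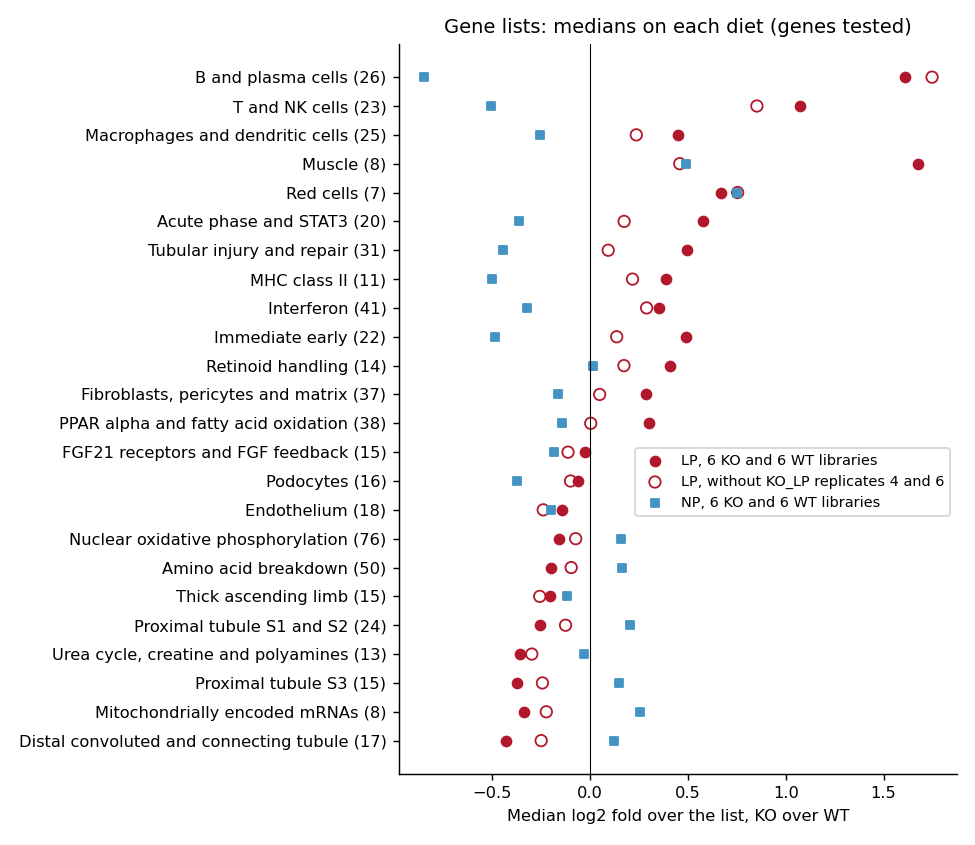
Median log2 fold of KO over WT (horizontal axis) for 24 gene lists (vertical axis, number of genes tested in brackets), on LP with all libraries, on LP without KO_LP 4 and KO_LP 6, and on NP. Leaving out both libraries, chosen after seeing the data, moves the injury list from 0.49 to 0.09 while B and plasma cells stay above 1.6. Not drawn are fits in which the B and plasma cell median was lower. It was 1.16 without KO_LP 5, 0.84 with 1 surrogate variable and 0.23 with the immune covariate.

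Amino acid metabolism was touched at single enzymes. Of 50 genes of amino acid breakdown, 4 were lower and 1, Bcat2, higher (median -0.20, 0.17 on NP). Together they were 10% of the list, beside 2.93% of all genes tested. The lower calls ran from 2 (without KO_LP 4) to 9 (without WT_LP 3) with 1 library left out, with 8 without KO_LP 1. Without KO_LP 4 and KO_LP 6 together 2 were (median -0.095), and with the immune covariate 1 was (median 0.03). Mccc2, which acts in leucine breakdown, ran from 11.2 to 19.9 CPM against 20.5 to 27 CPM (log2 fold -0.68, SE 0.123, adjusted p = 0.003; 0.00 on NP). Uroc1, which acts in histidine breakdown, ran from 11.3 to 19.7 CPM against 20.6 to 31.2 CPM (-0.73, adjusted p = 0.00778). Aadat, an aminotransferase of lysine and tryptophan breakdown, ran from 44.4 to 79.3 CPM against 87.1 to 169 CPM (-0.90, adjusted p = 0.0199, 0.057 without KO_LP 4). None of these overlapped between the groups. Acmsd, which draws a tryptophan product away from NAD synthesis, ran from 16.9 to 53.2 CPM against 54.2 to 109 CPM (-0.82, adjusted p = 0.0394, 0.107 without WT_LP 2). Glutamine synthetase Glul (-0.48), ornithine aminotransferase Oat (-0.36) and the creatine transporter Slc6a8 (-0.39) were lower, with adjusted p of 0.0453, 0.0327 and 0.042. Without KO_LP 4 Glul and Slc6a8 each had 0.108, and without WT_LP 2 Oat had 0.0756.

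Some transporters were lower. Of 21 amino acid and peptide transporters 3 were called (14.3%) and of 24 organic anion and cation transporters 3 (12.5%), all lower, beside 1.59% of all genes tested. In the leave-one-out fits 0 to 3 and 1 to 4 of them were lower, without KO_LP 4 and KO_LP 6 together 0 of both, and with the immune covariate 0 of both. The called genes include Slc7a7 and Slc22a13, given above. The aromatic amino acid carrier Slc16a10 (-0.39) and Cltrn, which brings amino acid transporters to the brush border (-0.59), were lower, with adjusted p of 0.0476 and 0.0484 (0.129 without WT_LP 1 and 0.120 without WT_LP 2). So were the organic anion carrier Slco3a1 (-0.54, adjusted p = 0.0182, 0.0514 without WT_LP 1), which lies on chromosome 7, and the carnitine carrier Slc22a5 (-0.52, adjusted p = 0.042, 0.113 without WT_LP 1). Dio1, which activates thyroid hormone, ran from 7.04 to 11.7 CPM (median 9.56) against 9.21 to 53.5 CPM (median 21), with overlap (-1.39, SE 0.30, adjusted p = 0.0148). It kept its call in each of the 12 fits. The cytochrome Cyp2d12 (-1.33, adjusted p = 0.0327, 0.0826 without WT_LP 1) and the RNA binding protein gene Igf2bp1 (-1.84, adjusted p = 0.0299, 0.0782 without WT_LP 2) were lower too.

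Of 24 sterol genes 2 were called (8.33%, beside 1.59% of all genes tested), both lower, among them the sterol enzyme Sc5d (-0.72, adjusted p = 0.020, 0.0532 without WT_LP 2). Between 0 and 2 were called with 1 library left out, and without KO_LP 4 and KO_LP 6 together 0. The lysosomal lipase Lipa (-0.45) and the IGF carrier Igfbp4 (-0.50) were lower as well, and reached 0.0983 without WT_LP 2 and 0.108 without KO_LP 4. Ccng1, a p53 target of the cyclin family, fell without overlap, at 66.5 to 83.3 CPM against 98.5 to 117 CPM (-0.52, SE 0.0686, adjusted p = 0.000108; -0.16 on NP).

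Mitochondrial genes had small folds below 0. Of 76 nuclear genes of oxidative phosphorylation 70 had folds below 0 on LP (median -0.16) and 75 folds above 0 on NP (median 0.16). Only 1 was called, the ATP synthase subunit Atp5g1 (-0.40, adjusted p = 0.0191, 0.0542 without KO_LP 4). That is 1.32% of the list, near the 1.59% of all genes tested that were lower. With 1 library left out, 0 (without KO_LP 4 or WT_LP 1) to 12 (without KO_LP 1) were lower, with 3 without WT_LP 3 or WT_LP 4. Without KO_LP 4 and KO_LP 6 together none was called and the median was -0.072, and with the immune covariate the median was 0.049. Of 8 mitochondrially encoded mRNAs all had folds below 0 (median -0.34, 0.25 on NP) and none was called, with mt-Nd1 at -0.39 (adjusted p = 0.0846). The share given above is a mean per group over mitochondrially encoded genes as a whole (21 tested), not over these 8 alone. The transfer RNAs mt-Ta (-1.22, adjusted p = 0.00507) and mt-Tq (-1.08, adjusted p = 0.00228) were lower without overlap, in libraries made from poly(A) ends. Of 74 mitochondrial ribosomal proteins 4 were lower (5.41%), among them Mrpl34 (-0.42, adjusted p = 0.0094) and, on chromosome 7, Mrps12. With 1 library left out, 2 to 8 were lower (8 without KO_LP 1). Without KO_LP 4 and KO_LP 6 together 1 was (median -0.064), and with the immune covariate 0 were.

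The FGF pathway itself showed no call. Of 15 tested FGF receptors, co-receptors, kidney FGFs and feedback genes, 0 passed (median -0.03, -0.18 on NP). Fgfr1 was at 27.4 to 34.8 CPM in KO_LP and 25.4 to 31.6 CPM in WT_LP (log2 fold 0.14, SE 0.0807, adjusted p = 0.317), with overlap. Fgfr3 had a log2 fold of 0.29 (adjusted p = 0.117) and the feedback inhibitor Spry2 one of -0.16 (adjusted p = 0.314). Fgf1 ran from 55.5 to 133 CPM against 118 to 148 CPM (-0.56, SE 0.157, adjusted p = 0.0514), with -0.50 on NP. Kl, the co-receptor for FGF23, ran from 75.8 to 175 CPM against 109.8 to 269 CPM (-0.59, SE 0.26, adjusted p = 0.189). The fits with 1 library left out called at most 1 of the 15 genes.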

How the data were processed

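Poly(A) end libraries (Lexogen Quant-Seq, 50 bp forward reads) of 24 kidney cortex samples were compared, 1 per named animal, in 4 groups of 6. The authors deposited a table of whole-number counts per gene (16921 genes) and a table of normalized signal, which are those counts divided by a factor per library. GRCm38 and DESeq2 1.22.2 are named in the submitters' processing notes. Which aligner and counter were used is not given in the sources used here. All columns were matched to samples (0 left over).

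Counts were tested with edgeR 4.0.16 (TMM, filterByExpr, robust quasi-likelihood fit, 4 group means over 24 libraries, two-sided, Benjamini-Hochberg over 15165 genes, with 1756 below the filter). CPM values are counts scaled to the library total. The steps were tested on simulated data. Symbols came from the files for 14208 genes and from GENCODE M21 for 2668, and 45 identifiers matched neither. Library measures were compared by exact permutation tests.

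The lists, named genes and tests were chosen with earlier results of these data known. By rule, the text could name 12 rises and 12 falls, those of largest fold with a call and at least 5 CPM (leaving out Gm, Rik and pseudogene names), up to 4 genes of smallest p per list, called genes within 5 Mb of Fgf21, the 10 smallest p for the difference between diets, and FGF genes. The text leaves some out. Blvrb, Ceacam1, Ngrn, Crtc3, Isg20, Mpzl2, Fxyd6, Ostf1, Gm11942, Gm10073, Gm17511, Gm15459, Clec10a, Cidec, Fgb, Havcr1, Slc34a1, Acmsd, mt-Tq, Cyp2j9, Inava and Adgrg2 were chosen after their values were seen. Alternatives were other scalings, filters, tools (limma 3.58.1, DESeq2 1.42.0, sva 3.50.0), covariates, thinned counts, only the 12 LP libraries, no chromosome 7, and each library left out in turn. Leaving out KO_LP 4 and KO_LP 6 together was chosen after seeing the data. Fgf21 and Klb were not analysed here.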

Additional observations from a re-analysis of the deposited data

Results flagged for a closer look

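In each group of 6 libraries, the highest or lowest value was set apart when its gap to the nearest library exceeded Dixon's critical share of the group's range. Of 232 groups looked at, 43 had such a value. The critical share is set for about 1 in 20 groups of independent, normally distributed values. That rate does not hold for untransformed CPM of selected genes that share libraries, so no excess can be read from the count. Values after gene names are in CPM.

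KO_LP 6 was apart most often. It was high for Fgg (219), Fga (158), Lrg1 (148), Stat3 (278), Lcn2 (247), Gdf15 (155), Plin2 (1310.3), Apoh (44.3), Apoc3 (53.7), Il34 (198), Cd163 (6.42), Slc20a1 (79.0) and Cyp2j9 (23.3), and low for Sostdc1 (32.2). KO_LP 5 was high for the plasma cell genes Igkc (13463), Jchain (1083), Iglc2 (738), Igha (974) and Tnfrsf17 (3.90). KO_LP 2 was high for Gm11942 (1612), Gm17511 (6.56), Mpzl2 (59.3) and Iglc1 (581). KO_LP 4 was high for Mybpc2 (6.38) and low for Lipa (151). KO_LP 1 was high for Hsd17b14 (1.96), Slc22a13 (48.6), Aqp4 (20.1) and Oat (98.9), and its total of 8.47 M counts was low.

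Among WT_LP libraries, WT_LP 4 was high for Cd163 (0.933), Fga (26.3), Aqp7 (16) and Plin2 (127) and low for Oat (83.8). WT_LP 3 was high for Lcn2 (63.4), Havcr1 (78.1) and Adgrg2 (9.55). WT_LP 2 was high for Gm11942 (2.90) and Gm15459 (0.217), WT_LP 5 for Apoc3 (10.4), and WT_LP 6 for Hddc3 (8.39) and Eng (45.9).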

How the results depend on the processing

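The count of 445 called genes (204 higher, 241 lower) became 161 (71 and 90) with only the 12 LP libraries, 877 (464 and 413) with limma voom, 910 (416 and 494) with DESeq2, 290 (174 and 116, 60% higher) with 1 surrogate variable, 214 (150 and 64, 70.1% higher) with the mean of the immune markers as covariate and 210 (90 and 120) with thinned counts. The higher and lower shares thus turned with both covariates. Without chromosome 7 it was 302 (135 and 167), beside the 374 called on other chromosomes in the main fit. Without KO_LP 4 and KO_LP 6, chosen after seeing the data, it was 144 (72 and 72). With 1 library left out it ran from 180 (without WT_LP 1) to 733 (without WT_LP 3), with 89 to 363 higher and 91 to 370 lower. It was 208 without KO_LP 4, 233 without WT_LP 2, 268 without WT_LP 5 and 263 without WT_LP 6. The causes were not tested. Of the 445, 151 were called again with the 12 libraries, 419 with voom, 444 with DESeq2 and 104 with the immune covariate. The difference between diets gave 0 genes, and 117 with DESeq2.

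Folds that changed sign were those of Gdf15 (-0.14 without KO_LP 6, up to 1.44 without another library, -0.10 without KO_LP 4 and KO_LP 6), Plin2 (-0.068 without KO_LP 6, up to 1.90 without another library, -0.068 without KO_LP 4 and KO_LP 6) and Havcr1 (-0.23 with the immune covariate). The mitochondrially encoded share differed by -3.39 to -1.84 percentage points with 1 library left out, and passed the threshold without KO_LP 1 and without WT_LP 4 (-3.08). The number of genes with a count differed by -43.5 to 2.6. KO_LP libraries were shallower, so depth limits low genes most there. No paired analysis was possible because the labels give no replicate number shared by the groups.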
